A study of Drosophila melanogaster with 10 samples.

Results

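The dopamine receptors of Drosophila described here are the products of 4 genes, Dop1R1, Dop1R2, DopEcR and Dop2R, which were taken by name from the authors' table of expressed genes and joined by FlyBase identifier to the 23882 features of the count tables. Their transcripts were measured by bulk RNA-seq in Kenyon cells (KCs), the intrinsic neurons of the mushroom bodies, sorted from female brains at eclosion (day 0). There were 5 samples homozygous for dSERT16 and 5 homozygous for dSERT4, collected in parallel on 5 dates, and replicates 1 to 5 follow these dates. dSERT16 is an imprecise P-element excision that lacks DNA at the 5′ end of SerT, the gene of the serotonin transporter, and dSERT4 is the background-matched control, which has a smaller deletion and wild-type dSERT expression. Both genotypes carried Mef2(P247)-gal4 with a nuclear GFP reporter. This driver marks KCs of all subtypes but favors α/β and γ over α'/β' cells, and each sample was a sort from pooled brains without optic lobes, so that values are averages over KC subtypes and over flies. The study analysed replicates 2 to 5, and "4 pairs" below are these samples, while replicate 1 is the pair it left out. The paper's reason was a modest rise in technical variability, seen in a principal component analysis.

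Dopaminergic neurons innervate the lobes of the mushroom bodies, where dopamine released onto KC axons writes and erases olfactory memories. KCs read this signal through G protein-coupled receptors that differ in the G protein they use. Dop1R1 is a D1-like receptor that acts through Gs and the adenylyl cyclase rutabaga and is required in KCs to form memories, Dop1R2 (also called DAMB) is a D1-like receptor that can act through Gq and calcium and is required for forgetting, DopEcR answers to both dopamine and ecdysteroids and raises cAMP, and Dop2R is the D2-like receptor, which acts through Gi and lowers cAMP and also serves as an autoreceptor on dopaminergic neurons.

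In the BDGP6 annotation all 4 genes lie on the reverse strand. Dop1R1 (FBgn0011582) is on 3R from 14165379 to 14214810 with 5 transcripts, and its exons together cover 14565 bp, the longest of the 4. Dop1R2 (FBgn0266137) is on 3R from 29630304 to 29659984 with 3 transcripts and 5164 bp of exons. DopEcR (FBgn0035538) is on 3L from 4367649 to 4380387 with 3 transcripts and 4291 bp of exons, and Dop2R (FBgn0053517) is on X from 20004680 to 20062706 with 6 transcripts and 6530 bp of exons. None of the genes shares an exon base with another feature of this annotation. The counts are per gene and do not separate the transcripts.

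Reads on genes ranged from 18446396 to 69997102 per sample. Few reads fell on SerT itself, 19 to 69 in dSERT4 and 5 to 40 in dSERT16 in the 4 pairs. Values per sample are given as CPM, the read count of a gene scaled to the size of its library after TMM normalization. This normalization also adjusts for library composition. On this scale SerT was at 0.920 to 3.40 CPM in dSERT4 and 0.230 to 0.762 CPM in dSERT16 in the 4 pairs. The KC markers prt, a vesicular transporter of KCs, and Mef2 were abundant in every sample, and the 9 KC genes examined summed to between 11611 and 12407 CPM in the 4 pairs. Glial genes were also present, at a sum of 881 to 1478 CPM in dSERT4 and 930.2 to 1455 CPM in dSERT16 in those pairs, and at 469.6 and 229 CPM in replicate 1. The counts per receptor were large, from 5643 reads (Dop2R) to 97134 reads (Dop1R2) in a sample.

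Per length, DopEcR and Dop1R2 were the more abundant dopamine receptor transcripts of these KCs and Dop2R the least, and which of DopEcR and Dop1R2 came first depended on the length used. In the authors' TPM, which scales reads by transcript length and by library, DopEcR stood at 256 ± 17.0 (SD, n = 4) in dSERT4 and 221 ± 15.6 (SD, n = 4) in dSERT16. Dop1R2 followed at 180.4 ± 18.3 and 156 ± 10.9 TPM, Dop1R1 at 90.0 ± 18.7 and 85.8 ± 6.50 TPM, and Dop2R at 24.1 ± 7.03 and 19.9 ± 2.82 TPM (SD, n = 4 each). The order DopEcR, Dop1R2, Dop1R1, Dop2R held in each of the 8 samples, and no neighbours overlapped over the 8 samples. The lowest DopEcR value was 207 TPM against a highest Dop1R2 value of 199, the lowest Dop1R2 value was 144 against a highest Dop1R1 value of 107, and the lowest Dop1R1 value was 63.4 against a highest Dop2R value of 29.6. In TPM, DopEcR made up 43.0% to 49.3% of the summed TPM of the 4 receptors, Dop1R2 30.4% to 36.5%, Dop1R1 11.7% to 19.0% and Dop2R 2.57% to 5.74%. The lengths behind the authors' TPM are not given in the sources used here. With CPM divided by the exon lengths above, in an alternative added after the values were seen, Dop1R2 came first in each of the 8 samples, at 245 ± 26.3 CPM per kb of exon in dSERT4 and 217 ± 13.7 in dSERT16, and DopEcR second at 179.6 ± 12.6 and 159 ± 8.08 (SD, n = 4 each). Dop1R1, at 72.1 ± 14.8 and 70.5 ± 6.88 CPM per kb, and Dop2R, at 50.5 ± 14.6 and 42.8 ± 6.91 (SD, n = 4 each), kept the third and the fourth place in each sample, with ranges that overlapped over the 8. Transcript use was not measured.

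Among the 17 receptors for dopamine, serotonin, octopamine and tyramine examined, DopEcR ranked first and Dop1R2 second in mean TPM over the 8 samples, at 239 and 168. Per kb of annotated exon these ranks were exchanged, with Dop1R2 at a mean of 231 CPM per kb and DopEcR at 169, while Dop1R1 (rank 6) and Dop2R (rank 8) had the same rank on both scales. In TPM, the range of Dop1R2 overlapped that of Octbeta1R, an octopamine receptor that raises cAMP (141 to 168 TPM). That of Dop1R1 overlapped that of Oamb, an octopamine receptor of the mushroom bodies (82.7 to 112 TPM). Dop2R, at rank 8, lay below 5-HT1A, an inhibitory serotonin receptor (39.2 to 51.8 TPM), and overlapped the octopamine receptor Octalpha2R (12.0 to 14.7 TPM). Per kb of exon none of these overlaps held. The lowest Dop1R2 value was 204 CPM per kb against a highest Octbeta1R value of 171. The highest Dop1R1 value was 87.1 against a lowest Oamb value of 89.5. The lowest Dop2R value was 29.9 against a highest Octalpha2R value of 18.3. On that scale DopEcR (150 to 191) overlapped Octbeta1R, and Dop1R1 overlapped the serotonin receptor 5-HT1B (57.6 to 84.0). Of the 9655 genes in the authors' table, 91.3% had a lower mean TPM than DopEcR, 86.6% a lower one than Dop1R2, 74.8% a lower one than Dop1R1 and 49.3% a lower one than Dop2R.

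**Figure D1:**
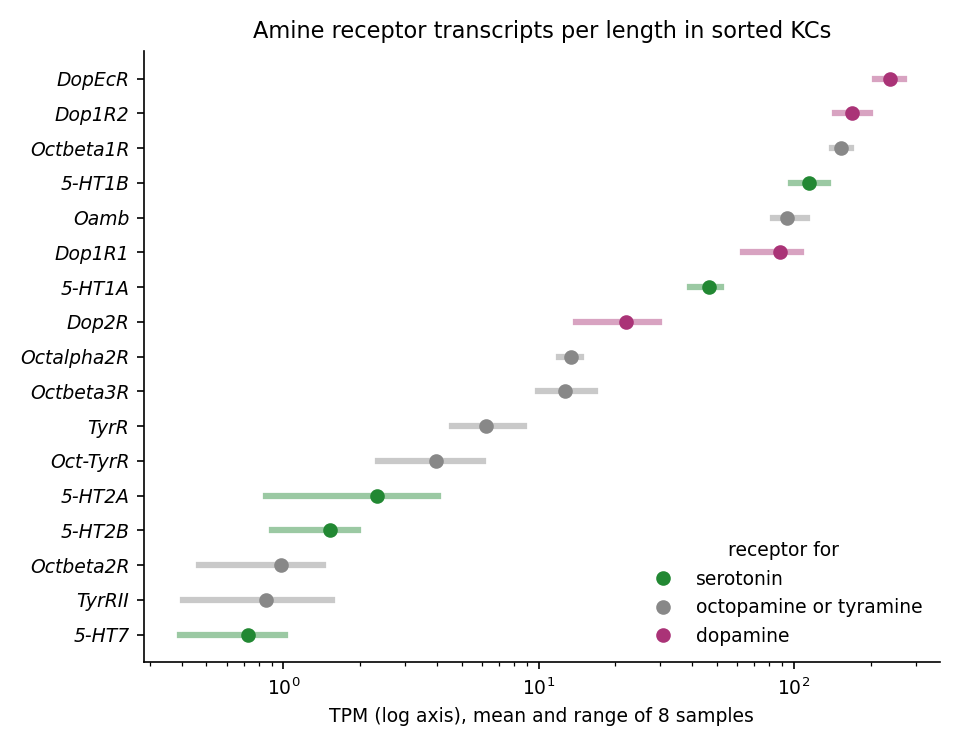
TPM of 17 amine receptors in sorted KCs on a log axis, with the point at the mean and the bar from the lowest to the highest of the 8 samples of replicates 2 to 5. DopEcR and Dop1R2 have the highest means (239 and 168 TPM), and Dop2R (22.0 TPM) is the lowest of the 4 dopamine receptors.

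The comparison of dSERT16 with dSERT4 asks whether the loss of serotonin reuptake goes along with a change in the transcripts by which KCs read dopamine. None of the 4 receptors was called by edgeR's quasi-likelihood test in the 4 pairs at a Benjamini-Hochberg adjusted p under 0.05, and none by DESeq2, where edgeR called 43 of the 8690 genes tested (0.495%), 23 of them higher in dSERT16 (0.265%) and 20 lower (0.230%). The fitted log2 fold changes were below 0 for all 4 receptors, which 50.0% of the genes tested share, and the median of the 4 was -0.18 against 0.00 for all genes tested. In bulk samples a lower share of the cells that express a receptor and less receptor RNA per cell cannot be told apart.

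Dop1R1, the memory-forming D1-like receptor, differed least between the genotypes. It stood at 993, 753, 1062, 1117 and 1268 CPM in dSERT4 replicates 1 to 5, and at 842, 1056, 879.8, 1072 and 1102 CPM in dSERT16. The lowest and the highest of the 10 values were both dSERT4 samples, and the dSERT16 values lay between them. Over the 4 pairs the means were 1050.2 ± 216 CPM in dSERT4 and 1027 ± 100.2 CPM in dSERT16 (SD, n = 4), and the log2 fold change was -0.03 ± 0.13 (standard error) at an edgeR adjusted p = 0.995. The 95% interval of the difference ran from -19.6% to 19.0%. The sign of this difference was not stable, since it was 0.074 on the log2 scale without dSERT4 replicate 5 and 0.036 without dSERT16 replicate 3.

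Dop1R2, the D1-like receptor of forgetting, was at 1390.0, 1417, 1305, 1091 and 1253 CPM in dSERT4 replicates 1 to 5, and at 1166, 1216, 1128, 1051 and 1088 CPM in dSERT16. The dSERT16 sample was the lower on each date, but the groups overlapped because dSERT4 replicate 4 was lower than all but 2 of the dSERT16 values of replicates 2 to 5. The means over the 4 pairs were 1266 ± 136 CPM in dSERT4 and 1121 ± 70.8 CPM in dSERT16 (SD, n = 4). The log2 fold change was -0.18 ± 0.09 (standard error) at an edgeR adjusted p = 0.734, a difference of -11.5% with a 95% interval from -22.1% to 0.631%.

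DopEcR, the dopamine and ecdysteroid receptor, was at 947, 821, 791, 694 and 777 CPM in dSERT4 replicates 1 to 5, and at 763, 645, 717, 660.3 and 706 CPM in dSERT16. As for Dop1R2, the dSERT16 sample was the lower on each date and dSERT4 replicate 4 lay within the range of dSERT16. The means over the 4 pairs were 771 ± 54.1 CPM in dSERT4 and 682 ± 34.7 CPM in dSERT16 (SD, n = 4). The log2 fold change was -0.18 ± 0.08 (standard error) at an edgeR adjusted p = 0.658, a difference of -11.5% with a 95% interval from -21.1% to -0.664%. DopEcR was the only receptor with an unadjusted p under 0.05 in this fit, and 303 of 8690 genes (3.49%) were lower in dSERT16 at that unadjusted p.

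Dop2R, the D2-like receptor, varied most within a genotype. It was at 261, 195, 331.1, 402 and 391 CPM in dSERT4 replicates 1 to 5, and at 189, 279, 216, 306 and 317 CPM in dSERT16. The groups overlapped widely, with dSERT4 replicate 2 below every dSERT16 value of replicates 2 to 5. In dSERT4 the highest of replicates 2 to 5 was 2.06 times the lowest, against 1.18 times for DopEcR. The means over the 4 pairs were 329.7 ± 95.1 CPM in dSERT4 and 279.7 ± 45.1 CPM in dSERT16 (SD, n = 4), and the log2 fold change was -0.24 ± 0.21 (standard error) at an edgeR adjusted p = 0.912, with a 95% interval from -39.3% to 18.5%.

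**Figure D2:**
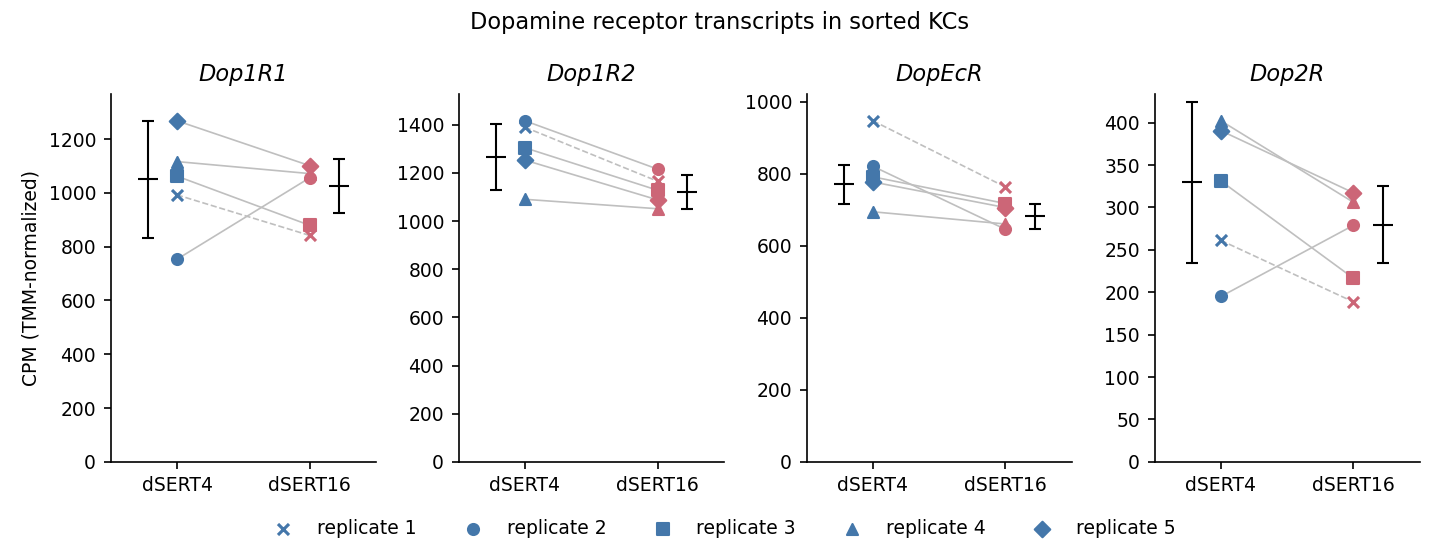
CPM of each receptor in the 10 samples, with dSERT4 on the left and dSERT16 on the right of each panel, lines joining samples of the same collection date (dashed for replicate 1), and black bars for the mean and SD of replicates 2 to 5 (n = 4). The lines of Dop1R2 and DopEcR go down on all 5 dates, while those of Dop1R1 and Dop2R go up on the date of replicate 2.

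Each receptor was also tested on its own. An exact permutation test (two-sided, 4 samples against 4, smallest possible p = 0.0286) on log2 CPM gave p = 0.886 for Dop1R1, 0.114 for Dop1R2, 0.0857 for DopEcR and 0.514 for Dop2R. With replicate 1 added (5 against 5, smallest possible exact p = 0.00794), the exact permutation p was 0.690 for Dop1R1, 0.0476 for Dop1R2, 0.0397 for DopEcR and 0.325 for Dop2R. These 4 values carry no correction, and over all genes edgeR called none of the 4 receptors in all 5 pairs (lowest adjusted p = 0.507, DopEcR). The permutation values under 0.05, for Dop1R2 and DopEcR, were reached only with replicate 1, which the study left out for its technical variability.

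Within dates, Dop1R2 was lower in dSERT16 by 0.25, 0.22, 0.21, 0.05 and 0.20 on the log2 scale for replicates 1 to 5, and DopEcR by 0.31, 0.35, 0.14, 0.07 and 0.14. Both receptors thus went the same way on 5 of 5 dates, which 517 of 8726 genes also did (5.92% lower in dSERT16 on all 5 dates). An exact test that flips the sign of each date's difference gave p = 0.0625 for each, the smallest p that 5 dates allow. Dop1R1 and Dop2R were lower in dSERT16 on 4 of 5 dates (exact p = 0.688 and 0.313) and higher on the date of replicate 2, where dSERT16 exceeded dSERT4 by 0.49 for Dop1R1 and 0.52 for Dop2R. With collection date as a block in edgeR, the log2 fold changes in the 4 pairs were -0.01 for Dop1R1, -0.17 for Dop1R2, -0.17 for DopEcR and -0.20 for Dop2R, and the lowest adjusted p of the 4 was 0.382 (Dop1R2). In all 5 pairs with the block the lowest was 0.175, again for Dop1R2.

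**Figure D3:**
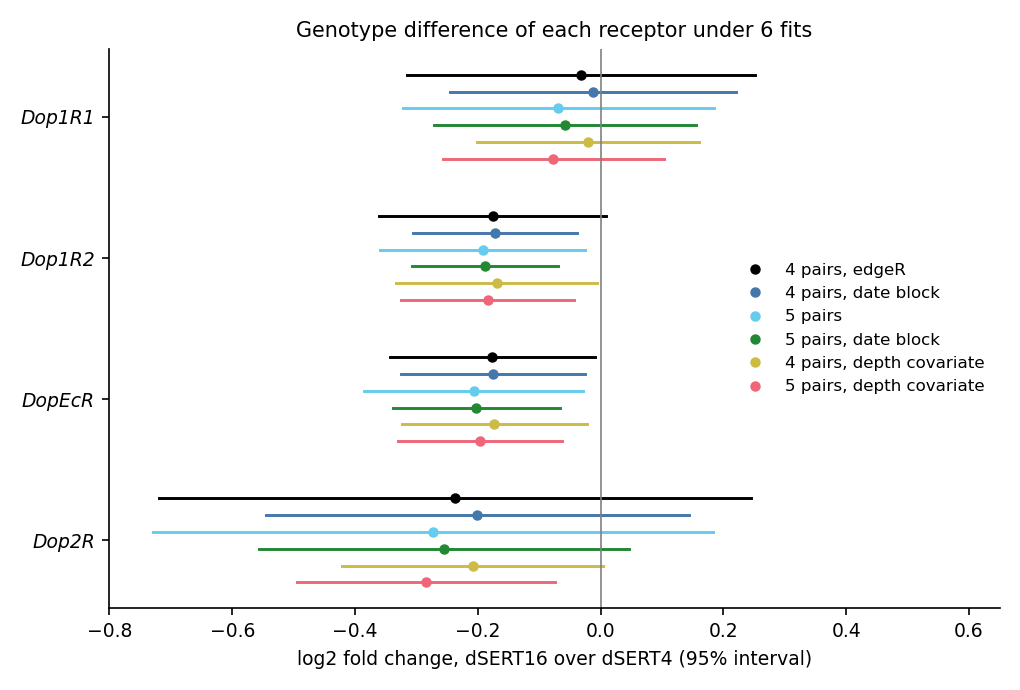
Log2 fold change of dSERT16 over dSERT4 for each receptor, with 95% intervals, under 6 edgeR fits that differ in the pairs used, the date block and library depth as a covariate. The estimates run from -0.19 to -0.17 for Dop1R2 and from -0.21 to -0.17 for DopEcR, and the interval of Dop2R is widest in the fits without a block or a depth term.

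The values of Dop1R1 and Dop2R moved together across the samples, and both were lower in the deepest libraries. The 4 deepest libraries were both libraries of replicate 1, dSERT4 replicate 2 and dSERT16 replicate 3, with 48440880 to 69997102 reads on genes against 18446396 to 29161988 in the other 6. Dop2R was at 189 to 261 CPM in these 4 libraries and at 279 to 402 CPM in the other 6, with no overlap. Dop1R1 was at 753 to 993 CPM in the 4 and at 1056 to 1268 CPM in the other 6, also with no overlap. Of all genes, 221 of 8726 (2.53%) had every value in the 4 deepest libraries below every value in the other 6. The share of unmapped reads separated the same libraries, at 8.03% to 10.9% in the 4 deepest and 11.1% to 14.5% in the other 6, and its part in the receptor values was not tested.

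This pattern was seen in the values first and then fitted across all genes, with log2 depth as the term of interest and genotype as a covariate in all 10 samples. Dop2R fell by 0.43 on the log2 scale per doubling of depth (standard error 0.07, edgeR adjusted p = 0.00710), or -25.7% with a 95% interval from -33.0% to -17.5%. In the same fit 258 of 8726 genes were called (2.96%), 185 of them lower (2.12%) and 73 higher (0.837%) in deeper libraries, and Dop2R ranked 22 by p. It was called when any of the 10 samples was left out, with adjusted p from 0.00276 to 0.0247, and in the 4 pairs (-0.56, edgeR adjusted p = 0.0205).

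Of the 9 KC markers, 2 were called in this depth fit. prt changed by -0.24 per doubling (edgeR adjusted p = 0.0462), in the direction of Dop2R, and sNPF, a neuropeptide of KCs, by 0.19 (edgeR adjusted p = 0.0358), in the other direction. Of the 26 tested markers of glia, transmitter neurons, eye, fat body and blood, 0 were called with depth by edgeR, 3 had an unadjusted p under 0.05, and DESeq2 called 2, wrapper of glia and apolpp of fat body. The part of KC composition in the receptor values was not tested.

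Dop1R1 changed by -0.23 per doubling (standard error 0.06, edgeR adjusted p = 0.0547), just outside the threshold. Without dSERT4 replicate 1 it was called (-0.31, adjusted p = 0.0333), as it was without dSERT4 replicate 2 (-0.19, adjusted p = 0.0403) and by DESeq2 (adjusted p = 0.0271), which called 7.65% of the genes it gave an adjusted p. The estimates of the other 2 receptors had the opposite sign, at 0.10 for Dop1R2 (edgeR adjusted p = 0.282) and 0.14 for DopEcR (edgeR adjusted p = 0.0980), and neither was called.

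Depth and collection date are partly tied, since both libraries of replicate 1 were deep. Within dates, depth differed much on only 2 of them. On the date of replicate 2 the dSERT4 library was 1.83 times as deep as that of dSERT16, and Dop2R was 195 CPM in dSERT4 and 279 CPM in dSERT16. On the date of replicate 3 the dSERT16 library was 1.79 times as deep, and Dop2R was 216 CPM in dSERT16 and 331.1 CPM in dSERT4. The deeper library was thus the lower in Dop2R on both dates, and likewise in Dop1R1, whichever genotype it was. On the other 3 dates depth differed by no more than 1.10 times. On these, Dop2R was lower in dSERT16 by 0.47, 0.39 and 0.30 on the log2 scale and Dop1R1 by 0.24, 0.06 and 0.20. The dates were divided in this way after the values were seen. The date of replicate 2, the only one with either receptor higher in dSERT16, was among those set aside. The shared direction on the other dates is therefore no test of genotype or depth. The share of all genes lower in dSERT16 on these 3 dates was not counted.

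With date as a block, the depth term of Dop2R was -0.62 ± 0.16 (standard error), and its edgeR adjusted p was 0.4999. In that fit 0 genes were called by edgeR, 609 had an unadjusted p under 0.05, and DESeq2 was not run with this block. What sets the depth of these libraries is not given in the sources used here, and its part in the receptor values was not tested.

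With log2 depth as a covariate in the genotype comparison, a fit also added after the values were seen, the log2 fold change of Dop2R in the 4 pairs was -0.21, and its standard error was 0.10 in place of 0.21. Its edgeR adjusted p was 0.611. The estimates of Dop1R1 (-0.02), Dop1R2 (-0.17) and DopEcR (-0.17) moved little, and none of the 4 was called. In all 5 pairs with this covariate the lowest adjusted p was 0.225 (DopEcR), and Dop2R was at -0.28 (edgeR adjusted p = 0.292).

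**Figure D4:**
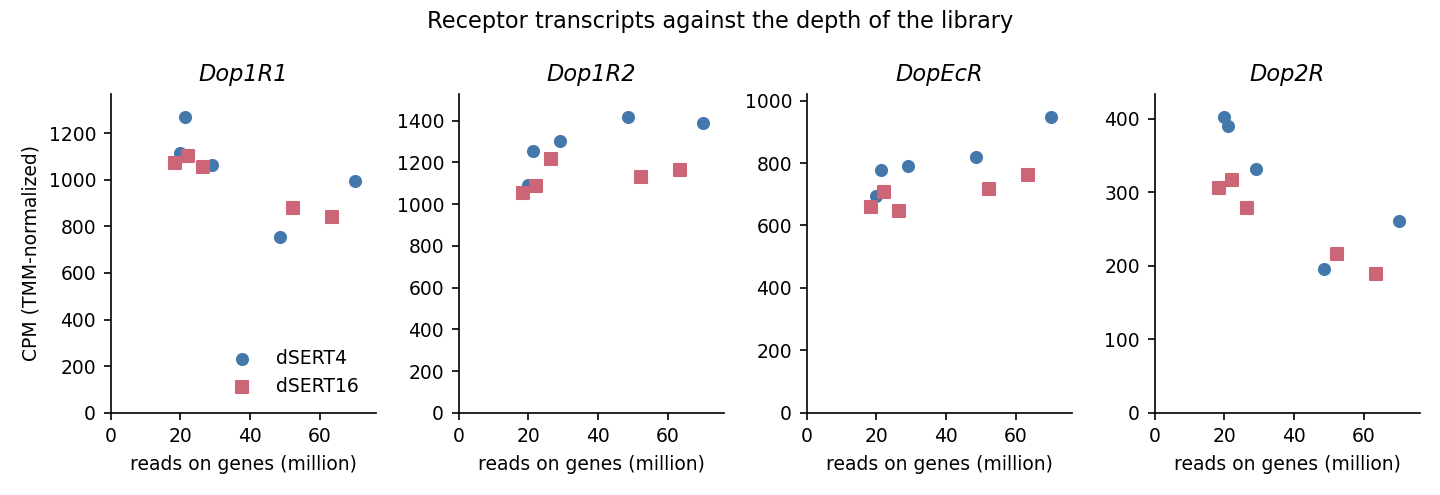
CPM of each receptor against the reads on genes of the library, for dSERT4 (circles) and dSERT16 (squares), 10 samples per panel. Dop2R and Dop1R1 are lower in the 4 libraries with 48440880 reads or more than in the 6 others, in both genotypes.

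Replicate 1 as a whole was also compared with the other dates, since the study left it out. This sets both libraries of a single date against the rest, so its p-values do not measure the spread between dates. With genotype as a covariate, edgeR called 84 of 8726 genes (0.963%) and none of the receptors, of which 1 had an unadjusted p under 0.05 (DopEcR). The log2 differences of replicate 1 from the others were -0.18 for Dop1R1 (adjusted p = 0.599), 0.10 for Dop1R2 (0.682), 0.23 for DopEcR (0.215) and -0.45 for Dop2R (0.396). Of the 7 glial genes tested, 4 were called lower in replicate 1, among them repo, the transcription factor of glia, at -2.51 (adjusted p = 0.0216) and the glutamate transporter Eaat1 at -3.40 (adjusted p = 6.6e-05). Both libraries of replicate 1 were therefore low in glial transcripts and high in depth, and the part of either in the receptor values was not tested.

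The 4 receptors formed 2 pairs by their variation. Over the 10 samples, Pearson's r of log2 CPM was 0.94 between Dop1R1 and Dop2R (0.93 over the 8 samples without replicate 1) and 0.80 between Dop1R2 and DopEcR (0.78 over the 8), while the 4 other pairs of receptors had r from -0.33 to -0.25. These correlations share libraries and depth and are given as a description. Among 8725 other genes, those with the highest r with Dop2R were CG12531 (0.97), nej (0.96), which encodes the histone acetyltransferase CBP, and Snx27 (0.96), a sorting nexin. For Dop1R1 they were nej (0.94), Dop2R (0.94) and Swip-1 (0.93), a calcium-binding actin regulator. For Dop1R2 the genes were glec (0.95), lobo (0.93) and CG3065 (0.92), and for DopEcR they were lncRNA:CR45405 (0.96), CG14183 (0.95) and wek (0.92). Of these 6, lobo, lncRNA:CR45405 and CG14183 were at a mean of 1.27, 1.61 and 1.98 CPM, where read sampling weighs more.

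Ratios of receptor reads also differed between libraries. For each read on Dop2R there were 2.71 to 3.94 reads on Dop1R2 in dSERT4 replicates 3 to 5, against 7.27 in dSERT4 replicate 2 and 5.32 in dSERT4 replicate 1. In dSERT16 the ratio was 3.43 to 4.36 in replicates 2, 4 and 5, against 5.21 in replicate 3 and 6.18 in replicate 1. The deep libraries were the high ones in each genotype. These ratios use the same reads as the values above and are no separate evidence. The same holds for TPM, in which the lowest Dop2R values were those of dSERT4 replicate 2 (14.0 TPM) and dSERT16 replicate 3 (15.99 TPM).

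The genes around the receptors were then examined in 7 lists with 60 genes in all, of which 58 were tested. Of these, 1 rose in dSERT16 and 0 fell by edgeR, 9 had an unadjusted p under 0.05 in the 4 pairs, and the median log2 fold change of the 58 was -0.04. DESeq2 called 4 genes of the lists, AANAT1, CrebA, Epac and Oct-TyrR, and 148 of the 10453 genes to which it gave an adjusted p (1.42%). The 9 genes are 15.5% of those tested in the lists, and among all genes tested 7.01% had an unadjusted p under 0.05. The lists were chosen with earlier results of these data known, so these shares are not a test of the lists.

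The gene that rose was AANAT1, which encodes an arylalkylamine N-acetyltransferase that inactivates dopamine and serotonin, and it belongs to the list of dopamine supply and breakdown. It was at 217, 196, 223 and 209 CPM in dSERT4 replicates 2 to 5, and at 288, 296, 270.3 and 287 CPM in dSERT16. The groups did not overlap, which holds for 4.89% of the genes tested, and replicate 1 went the same way with 159.6 CPM in dSERT4 and 256 CPM in dSERT16. The log2 fold change was 0.44 ± 0.08 (standard error) at an edgeR adjusted p = 0.0296. The call held without dSERT4 replicate 2 or 4, and was lost without dSERT4 replicate 3 or 5 or any dSERT16 sample, with adjusted p up to 0.141. The paper reports that its differentially expressed genes were concentrated on the chromosome arm that carries SerT. It proposes that at least part of these differences may stem from the altered DNA itself and not from serotonin signaling. Whether the rise of AANAT1 depends on its position in the genome was not tested.

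The other members of the dopamine supply list were not called. Ddc, the decarboxylase that makes dopamine and serotonin, had means of 450.1 ± 79.4 CPM (dSERT4) and 560.4 ± 54.3 CPM (dSERT16, SD, n = 4) and a log2 fold change of 0.32 (edgeR adjusted p = 0.521). DAT, the dopamine transporter, had 0.31 (edgeR adjusted p = 0.787). Of the 8 members tested, 7 had log2 fold changes above 0, while 50.0% of all genes tested were below 0. The median of the 8 was 0.32 against 0.00 for all genes. The 7 include ple, at 0.50 with a standard error of 1.68.

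In the list of Gs and cAMP signaling, the arm downstream of Dop1R1, 0 of 15 genes were called by edgeR, 3 had an unadjusted p under 0.05, and the median log2 fold change was -0.07. The core of the pathway differed little, with -0.02 for Galphas, the Gs subunit, -0.03 for dnc, the cAMP phosphodiesterase, and 0.05 for Pka-C1, the catalytic subunit of protein kinase A. rut, the cyclase, had means of 481 ± 97.3 CPM (dSERT4) and 479.9 ± 33.6 CPM (dSERT16, SD, n = 4, edgeR adjusted p = 0.999). Epac, a guanine nucleotide exchange factor that cAMP activates, was at 104 to 122 CPM in dSERT4 and 130.4 to 184 CPM in dSERT16. These values of the 4 pairs did not overlap, which holds for 4.89% of the genes tested. Its log2 fold change was 0.49 ± 0.11 (standard error) at an edgeR adjusted p = 0.0870. Epac passed the threshold in 7 of 18 alternatives, among them the date block (0.48, adjusted p = 0.0435) and all 5 pairs (adjusted p = 0.0190). Of the 8 fits that left out 1 sample, 1 called it, that without dSERT16 replicate 2 (adjusted p = 0.0431). The adjusted p in these fits was up to 0.271. CrebA, a transcription factor of the secretory pathway, had -1.07 (edgeR adjusted p = 0.101), and Ac78C, another adenylyl cyclase, -0.24 (edgeR adjusted p = 0.619).

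In the list of Gi, Go, Gq and calcium signaling, the arm of Dop2R and Dop1R2, 0 of 12 genes were called by edgeR, 1 had an unadjusted p under 0.05, and the median was 0.04. Galphaq, the Gq subunit, had -0.42 (standard error 0.16, edgeR adjusted p = 0.584) and Galphai, the Gi subunit, -0.61 (edgeR adjusted p = 0.805) at a mean of 7.32 CPM in dSERT4. Galphao, the Go subunit, was called in the depth fit, as Dop2R was, at -0.43 per doubling (edgeR adjusted p = 0.0173).

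Of the 5 genes for a scaffold and actin regulators that act in forgetting, 0 were called by edgeR, 1 had an unadjusted p under 0.05, and the median was -0.07. Pak, a kinase downstream of the GTPase Rac1, had -0.27 (edgeR adjusted p = 0.507), and scrib, the scaffold that links Rac1 signaling to Dop1R2, had -0.07 (edgeR adjusted p = 0.913). Of the 4 genes for receptor desensitization, 0 were called by edgeR and 1 had an unadjusted p under 0.05. All 4 had log2 fold changes below 0, as 50.0% of the genes tested did, with a median of -0.15. RSG7, a regulator of G protein signaling, had -0.17 (edgeR adjusted p = 0.618), and krz, the nonvisual arrestin, -0.20 (edgeR adjusted p = 0.822). Gprk1, a G protein-coupled receptor kinase, was higher in deeper libraries by 0.37 per doubling (edgeR adjusted p = 0.00326).

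Of the 13 other amine receptors, 0 were called by edgeR, 1 had an unadjusted p under 0.05, and the median was -0.08. Oct-TyrR, a receptor for tyramine and octopamine, was at 29.9 to 44.1 CPM in dSERT4 and 17.4 to 25.0 CPM in dSERT16. These values of the 4 pairs did not overlap, as for 4.89% of the genes tested. The log2 fold change of Oct-TyrR was -0.74 ± 0.17 (standard error) at an edgeR adjusted p = 0.0877. Octbeta3R, an octopamine receptor that raises cAMP, was higher in deeper libraries by 0.29 per doubling (edgeR adjusted p = 0.0255), the 1 gene of this list called in the depth fit. EcR, the nuclear receptor of ecdysone, had means of 199 ± 37.6 CPM (dSERT4) and 204 ± 8.39 CPM (dSERT16, SD, n = 4), and a log2 fold change of 0.04 (edgeR adjusted p = 0.995). Its partner usp is listed at 0 in every sample. A listed 0 need not mean absence, because reads ambiguous between features (8.84% to 9.85% per sample) were left out. Their part in the value of usp was not tested.

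**Figure D5:**
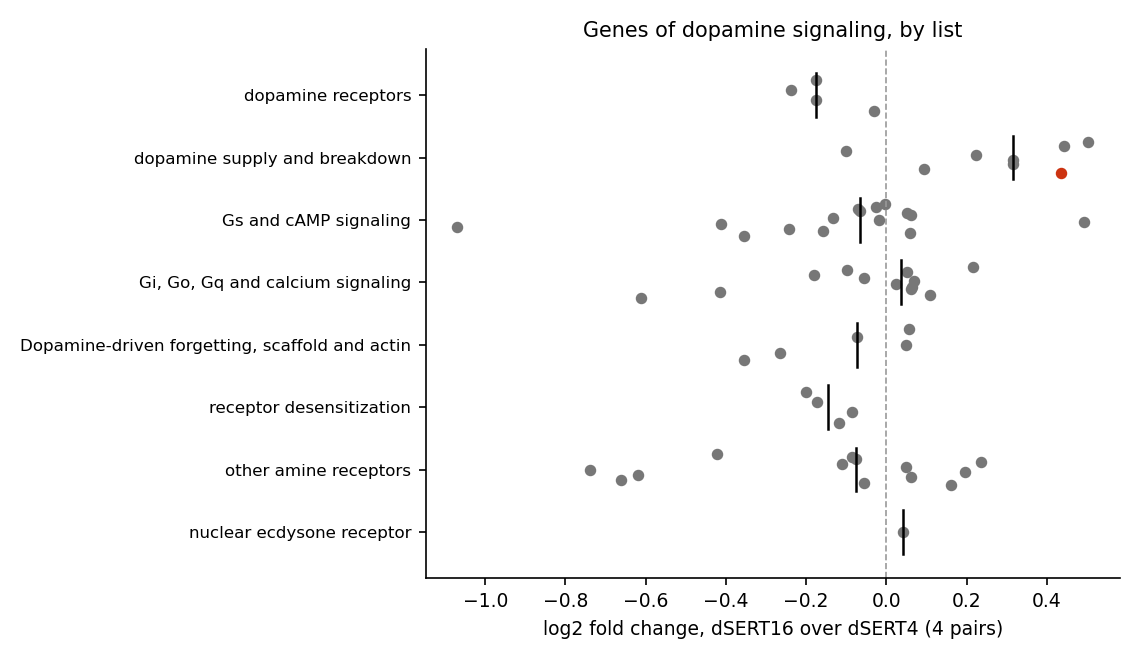
Log2 fold change of dSERT16 over dSERT4 in the 4 pairs for each tested gene of the dopamine receptors and 7 lists, with black lines at the medians and the 1 gene called by edgeR, AANAT1, in red. All 4 receptors lie left of 0, between -0.24 and -0.03.

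Transcripts of other cell types were followed beside the receptors, because Dop2R is also made by dopaminergic neurons. ple, the tyrosine hydroxylase that defines these neurons, was uneven, at 1.09, 57.4, 2.58, 2.46 and 11.5 CPM in dSERT4 replicates 1 to 5 and at 0.403, 27.9, 0.934, 77.4 and 0.875 CPM in dSERT16. The samples high in ple were dSERT4 replicate 2, which had the lowest Dop2R of its genotype, and dSERT16 replicates 2 and 4, which did not. The 10 markers of dopaminergic and other transmitter neurons, with Tdc2 at 0, summed in the 4 pairs to 73.6 to 135 CPM in dSERT4. In dSERT16 they summed to 65.2 to 157 CPM. Of the 8 tested, 0 were called between the genotypes by edgeR or DESeq2. The 2 at an unadjusted p under 0.05 were Gad1 (0.70, edgeR adjusted p = 0.602) and SerT (-1.92, edgeR adjusted p = 0.519). The 9 photoreceptor and eye genes summed to no more than 13.9 CPM, with Arr2 at 0, and 7 genes of fat body and blood cells to 26.0 to 46.5 CPM in dSERT4 and 11.5 to 33.9 CPM in dSERT16. Of the 7 glial genes tested, 0 were called between the genotypes by edgeR or DESeq2, 1 had an unadjusted p under 0.05, and the median was -0.22. Among the 9 glial genes, alrm and moody, a receptor of the blood-brain barrier glia, are listed at 0. As for usp, the listed values of 0 for alrm, moody, Tdc2 and Arr2 need not mean that these transcripts were absent. The part of these cells in the receptor values was not tested.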

How the data were processed

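The authors aligned reads with STAR to BDGP6 (dm6) and deposited raw counts of uniquely mapped reads per gene for the 10 samples. The STAR version and the annotation release are not given in the sources used here. Libraries were made by SMART-seq, which keeps no strand, so the count column without regard to strand was used, and 18.1% to 25.3% of the reads (unmapped, multimapping, featureless or ambiguous) stayed out. The authors' deposited table gives TPM for replicates 2 to 5, used for levels and not tested. Its log2 fold changes and p-values from the authors' own comparison were not used.

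Genes kept by filterByExpr (minimum count 10, minimum total 15) were tested with edgeR 4.0.16 (TMM, robust glmQLFit and glmQLFTest, no covariates) in the 4 pairs, with Benjamini-Hochberg adjustment over all genes. log2 CPM used a prior count of 2. Alternatives were DESeq2 1.42.0, its size factors, other filters, all 5 pairs, a date block, strand sums and leaving out each sample. The scripts were tested on simulated counts. Titles give a shared collection date per replicate number. Deviations from the genotype means correlated at 0.217, 0.104, 0.121, 0.0956 and 0.0546 within dates 1 to 5, against at most 0.0736 between dates.

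The receptors and the gene lists were chosen with earlier results of these data known. The genes named are the receptors, in each list the genes past the threshold or otherwise up to 4 with the lowest p, and the 3 genes most correlated with each receptor. Other genes of the lists that are named, and the samples called deepest, were picked after their values were seen. The p-values of the genotype comparisons measure the spread between pools of flies, and those with a date block or sign flips the spread of differences within dates. Replicate 1 against the others rests on a single date, so its p-values do not measure the spread between dates. The depth fit without a block treats libraries of the same date as independent.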

Additional observations from a re-analysis of the deposited data

Results flagged for a closer look

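In 52 sets of values examined for a sample far from the others of its genotype (receptors, genes of dopamine supply and summed markers), 4 stood out, and chance alone gives about 1 in 20. None of them was a dopamine receptor. In dSERT4 replicate 2, ple was at 57.43 CPM against a next value of 11.5 CPM. In dSERT4 replicate 1, Catsup, a regulator of tyrosine hydroxylase, was at 14.0 CPM against 18.0 to 18.6 CPM in the other samples. In dSERT4 replicate 3, Vmat, the vesicular monoamine transporter, was at 21.21 CPM against a next value of 5.96 CPM. In dSERT4 replicate 2, the summed markers of dopaminergic and other transmitter neurons were at 134.5 CPM against a next value of 83.5 CPM. This sum includes the 57.43 CPM of ple in that sample, so its flag is not separate from that of ple.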

How the results depend on the processing

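None of the 4 receptors was called between dSERT16 and dSERT4 under any of the 18 alternatives run, and Dop1R2, DopEcR and Dop2R kept their direction in all of them, at -0.24 to -0.11, -0.22 to -0.14 and -0.42 to -0.13 on the log2 scale. Dop1R1 changed sign without dSERT4 replicate 5 (0.074) and without dSERT16 replicate 3 (0.036), with a range from -0.16 to 0.074 when 1 sample was left out. The number of genes called, 43 as reported, was 148 with DESeq2, 77 without a filter on low counts, 66 in all 5 pairs, 94 in all 5 pairs with the replicate block, 88 in all 5 pairs with depth as a covariate, and 18 to 40 when 1 sample was left out. The replicate block in the 4 pairs gave 54. For replicate 1 against the others, DESeq2 called 513 genes in place of 84, and leaving out 1 sample gave 23 to 136. For depth, a fit chosen after seeing the data, DESeq2 called 657 genes in place of 258, the 4 pairs gave 70, the replicate block 0 (609 at an unadjusted p under 0.05), and leaving out 1 sample gave 89 to 234. Under these, Dop1R1 was past the threshold with DESeq2 (-0.23) and in 2 of 10 fits that left out 1 sample (range -0.31 to -0.19), and Dop2R was not past it with the block (-0.62). Among the other genes named, CrebA, Oct-TyrR and Epac were called by DESeq2 (adjusted p = 0.00241, 0.00281 and 0.0113) and without a filter, and apolpp, a fat body gene, with the block (-0.93, adjusted p = 0.0484). The cause of these differences was not tested. With CPM per kb of annotated exon in place of TPM, chosen after seeing the data, Dop1R2 ranked 1 and DopEcR 2 among the amine receptors, in place of 2 and 1. Strand sums moved the mean CPM of Dop1R2 in dSERT16 to 1037 and of DopEcR to 713 in dSERT4 and 631 in dSERT16. The receptor reads themselves hardly changed, by 7 to 85 for Dop1R2 and 6 to 28 for DopEcR in a sample. The shift is thus in the scaling to library size. With strand sums 10278 genes passed the filter in place of 8690, and what changed the scaling was not tested further. With 4 samples per genotype, the 95% intervals allow a difference of up to about -39.3% for Dop2R and -22.1% for Dop1R2, and changes within these intervals could not be told from none.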
